A study of Mus musculus with 18 samples.

Results

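Mitosis and the G2/M transition were followed through 50 genes whose products drive or carry out cell division, out of 25926 genes measured by RNA-seq in bone marrow-derived macrophages (BMDMs) cocultured with renal tubular epithelial cells (TECs). The members were taken by gene symbol from a list of division genes, and all 50 were found in the table. BMDMs from C57BL/6 mice (C57BL/6J in the growth notes) had been grown for 7 days in 50 ng/mL M-CSF, the growth factor that macrophages need, and were plated in Transwell inserts (0.4 μm pores) over TECs of wild-type mice. Each of the 3 groups had 6 samples, 18 in all. NC had BMDMs given PBS over TECs without crystals. COM had BMDMs given PBS over TECs exposed for 24 h to 100 μg/mL calcium oxalate monohydrate (COM), the main crystal of kidney stones. COM+Met had BMDMs given 5 mM Met for 24 h over TECs exposed to COM. The labels do not spell out Met, and they give neither the age of the mice nor whether replicates are separate cultures or animals. The p-values therefore describe only how these samples scatter, which may be technical. The study asked how TECs under crystal stress act on macrophages.

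Cell division is driven by cyclin-dependent kinase 1 (Cdk1) with its B- and A-type cyclins, which switch on the kinases and motors that build the spindle. Chromosomes are packed by condensin, captured at kinetochores and pulled apart once the anaphase-promoting complex (APC/C) has marked securin and cyclin B for destruction. The genes of this programme are turned on together late in the cell cycle, by the MuvB, B-Myb and FoxM1 factors through CHR elements and by NF-Y through CCAAT boxes, and are repressed together in resting cells. Mouse macrophages still divide in M-CSF, so bone marrow cultures express these genes.

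The promoters of 41 of the 50 genes were present in the RefSeq table on build GRCm38.p6, as windows from 250 bases before to 50 bases after the annotated start. CCAAT boxes (CCAAT, or ATTGG on the other strand) were found in 30 of the 41 genes (73.2%), against 43.0% of the 8354 tested genes with a window and 41.1% of all 27025 genes. CHR elements (TTTGAA or TTCGAA, the first read as TTCAAA on the other strand) were found in 31 of 41 (75.6%), against 16.9% of tested genes and 21.7% of all genes. Both motifs occurred in 27 of 41 (65.9%), against 7.18% and 8.61%, and at least 2 CCAAT boxes in 20 of 41 (48.8%), against 17.3% and 13.3%. These are letter matches, not measured binding sites. Ccna2, Pbk, Foxm1, Stmn1, Smc4, Aurkb, Tpx2, Spc24 and Kif20a had no window.

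**Figure D1:**
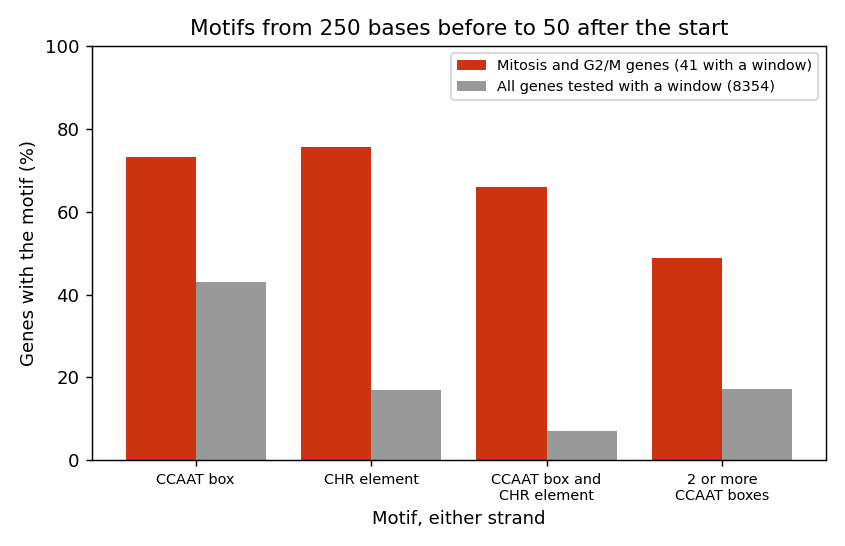
Share of genes (%) with each motif on either strand in the window from 250 bases before to 50 after the RefSeq start, for the 41 mitosis and G2/M genes with a window (red) and the 8354 tested genes with a window (grey). All 4 shares were higher for the mitosis and G2/M genes, and the pair of motifs together was found in 65.9% of them against 7.18%.

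Promoters of 5 genes are shown because they include both strong and weak falls among those described next: Ube2c kept 1.33% of its NC mean in COM and Mki67 28.1%. Each run is the sequence upstream of the RefSeq start (GRCm38.p6), 5′ to 3′ on the strand of the gene, with CCAAT boxes and CHR elements in either orientation in capitals. In Ube2c a CCAAT box and a reversed one overlap in the run CCAATTGG.
Ube2c, chr2:164769729-164769927, forward strand: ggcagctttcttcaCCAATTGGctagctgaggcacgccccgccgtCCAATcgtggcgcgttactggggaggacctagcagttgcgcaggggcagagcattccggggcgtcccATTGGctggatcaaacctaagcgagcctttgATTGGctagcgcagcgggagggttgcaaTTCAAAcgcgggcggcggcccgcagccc
Cdc20, chr4:118437344-118437543, reverse strand: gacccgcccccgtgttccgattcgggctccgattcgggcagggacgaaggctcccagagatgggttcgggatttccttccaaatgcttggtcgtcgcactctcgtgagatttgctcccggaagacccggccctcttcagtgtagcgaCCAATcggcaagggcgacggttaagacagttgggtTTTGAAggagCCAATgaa
Cdk1, chr10:69352913-69353112, reverse strand: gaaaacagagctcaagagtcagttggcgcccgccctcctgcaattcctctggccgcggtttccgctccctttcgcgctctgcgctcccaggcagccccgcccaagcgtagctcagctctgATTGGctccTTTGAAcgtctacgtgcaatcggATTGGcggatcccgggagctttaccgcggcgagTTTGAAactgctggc
Top2a, chr11:99024190-99024389, reverse strand: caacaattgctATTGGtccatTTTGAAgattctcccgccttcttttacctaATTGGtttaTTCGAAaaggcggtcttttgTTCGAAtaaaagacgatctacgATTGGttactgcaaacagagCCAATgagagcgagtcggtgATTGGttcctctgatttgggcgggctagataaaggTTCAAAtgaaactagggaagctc
Mki67, chr7:135716380-135716579, reverse strand: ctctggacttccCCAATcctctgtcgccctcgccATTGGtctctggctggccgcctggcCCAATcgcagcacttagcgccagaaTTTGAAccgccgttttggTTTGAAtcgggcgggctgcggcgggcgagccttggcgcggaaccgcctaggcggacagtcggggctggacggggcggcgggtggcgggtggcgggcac
The nearest CHR element lay 29 bases before the RefSeq start in Ube2c, 18 in Cdc20, 15 in Cdk1, 23 in Top2a and 98 in Mki67. Ube2c and Top2a each held 5 CCAAT boxes in this stretch, Mki67 held 3, and Cdc20 and Cdk1 held 2. RefSeq and GENCODE starts can differ, and in 11 of the 41 genes the RefSeq start lay over 30 bases inside the GENCODE gene. Ube2c was among them, at 31 bases, so its CHR element lies within the GENCODE gene. The nearest CHR element of Cdk1 does as well, since its RefSeq start lay 26 bases inside. Pttg1, whose RefSeq start lay 270 bases inside, had neither motif in its window. That window lay wholly inside the GENCODE gene, so the sequence before the GENCODE start was not searched. The same was true of Kif2c and Kif4, with starts 3867 and 328 bases inside. Birc5, Mad2l1, Melk, Ncaph, Nuf2 and Nusap1, like Pttg1, had neither motif in their windows, and unlike Pttg1 they all fell.

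Expression was given as FPKM (mapped fragments scaled to transcript length and to the sample's total), a level per gene length. In COM, 49 of the 50 genes were lower than in NC, and no COM sample of these 49 reached the lowest NC sample. The exception was Pttg1, the gene of securin. A gene was called when limma's adjusted p was below 0.05 and the groups differed at least 2-fold on the log2(FPKM + 1) scale, which understates the change of low genes. By this rule 11.7% of the 10900 genes tested were called lower in COM and 5.99% higher, and groups did not overlap, with COM lower, in 29.7%. The median log2 fold change of the 50 genes was -2.87, beside -0.27 over all genes tested. With median-of-ratios size factors the median of all genes moved to 0.0078 and that of the 50 genes to -2.70, and 49 were again called lower. The share of higher genes among all calls was 33.9% as deposited, 51.9% with size factors and 47.3% after quantile normalisation. Genes averaging under 1 FPKM across the 12 samples of a comparison were not tested. All 50 passed this filter, but 34 had a COM mean under 1 FPKM and passed through NC alone. In bulk RNA fewer dividing cells and less of these transcripts per cell cannot be told apart.

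Among the 49 genes that fell, the COM mean was between 0.882% (Pbk) and 28.1% (Mki67) of the NC mean, with a median of 3.71%. It was under 5% in 27 genes, from 5% to 20% in 18 and over 20% in 4, namely Mki67, Smc4, Cks2 and Mad2l1. Log2 fold changes ran from -4.90 for Ube2c to -1.68 for Mad2l1, and the largest adjusted p of limma was 0.000282. The summed FPKM of the 50 genes was 682 to 1442 in NC samples (median 851) and 74.3 to 113 in COM samples (median 105). Their share of all FPKM was 0.164% to 0.335% in NC and 0.0165% to 0.0282% in COM.

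**Figure D2:**
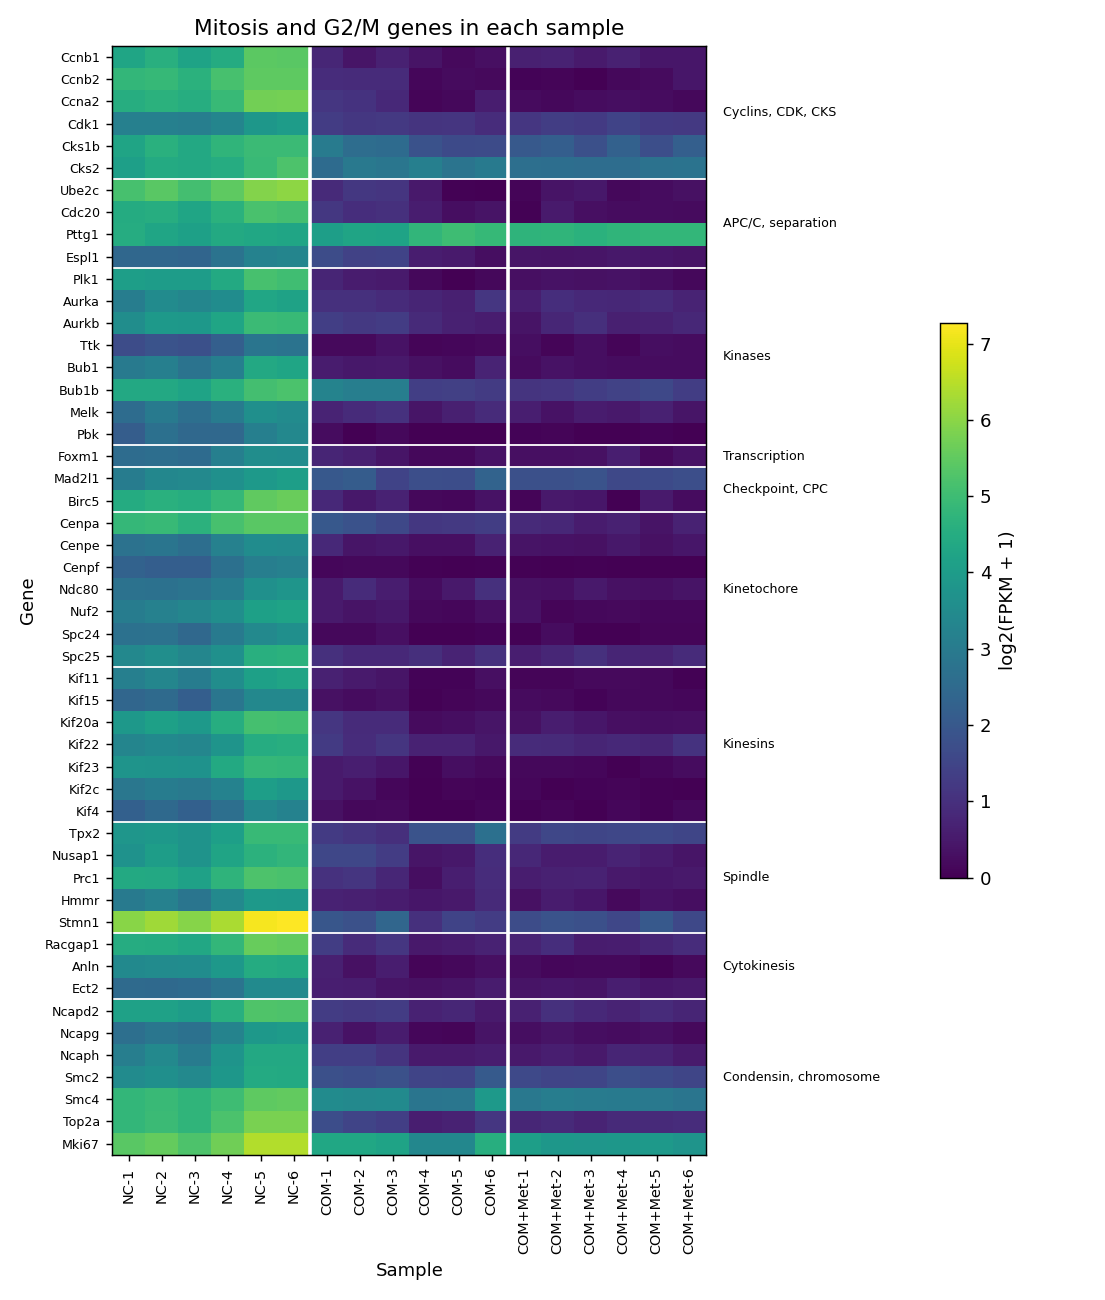
Level of each of the 50 genes (rows, by role) in each of the 18 samples (columns) as log2(FPKM + 1), shown by colour. NC columns are bright, most so NC-5 and NC-6, and COM and COM+Met columns are darker in every row except that of Pttg1.

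The fall was counted in 10 role groups. All 6 genes of the cyclins, Cdk1 and its CKS partners were called lower in COM (median log2 fold change -3.35), as were 8 of 8 mitotic kinases (-2.69), 7 of 7 kinetochore and centromere genes (-2.87), 7 of 7 kinesins (-3.14), 5 of 5 spindle and microtubule genes (-3.16), 3 of 3 cytokinesis genes (-3.53) and 7 of 7 genes of condensin and chromosome structure (-2.78). Both genes of the checkpoint and chromosomal passenger group (-3.08) and Foxm1 were called lower too. Of the 4 genes of the APC/C and sister separation, 3 were called lower.

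Ccnb2, a B-type cyclin that activates Cdk1 at mitotic entry, had the largest fall among the cyclins on the log2(FPKM + 1) scale, with Ccnb1 close to it at 1.44% of its NC mean. In NC it lay between 23.9 and 43.1 FPKM (median 31.6), in COM between 0.0971 and 0.903 (median 0.507) and in COM+Met between a listed 0 and 0.364 (median 0.083). The COM mean was 1.5% of the NC mean (log2 fold change -4.53, SE 0.20, adjusted p = 1.23e-08 by limma), and COM-1 to COM-3 were higher than COM-4 to COM-6. Ccna2, the A-type cyclin of S phase and G2, had the highest NC mean of its group. Its lowest, median and highest NC values were 21.9, 26.2 and 53.3 FPKM, those of COM 0.0728, 0.652 and 1.22, and those of COM+Met 0.118, 0.168 and 0.207. COM was again below every NC sample (-4.36, SE 0.27, adjusted p = 1.19e-07). Cks2, a small subunit bound to cyclin-dependent kinases that was chosen after its values were seen, kept more of its level: 16.1 to 37.0 FPKM in NC (median 21.0) against 4.82 to 7.87 in COM (median 6.49) and 5.01 to 5.80 in COM+Met (median 5.27). Its groups did not overlap between NC and COM either (-1.72, SE 0.18, adjusted p = 7.74e-06).

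Ube2c, the ubiquitin-conjugating enzyme of the APC/C, had the largest fall of the 50 genes on the log2(FPKM + 1) scale, although Pbk, Spc24, Birc5 and Cenpf kept a smaller share of their NC mean. It ranged from 33.2 to 64.1 FPKM in NC with a median of 42.6, and from a listed 0 in COM-6 to 1.27 in COM with a median of 0.614. COM+Met samples held 0.0616 to 0.380 FPKM with a median of 0.218. The NC mean was 75.1 times the COM mean and the log2 fold change -4.90 (SE 0.24, adjusted p = 2.17e-08 by limma). Cdc20, which activates the APC/C, and Espl1, the separase that cuts cohesin, were called lower as well, with COM at 2.72% and 18.9% of NC.

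Pttg1 encodes securin, which holds separase inactive until anaphase and is itself destroyed through the APC/C. NC samples had 16.6 to 21.7 FPKM (median 18.8). COM samples fell into 15.9, 17.8 and 17.5 FPKM in COM-1 to COM-3 and 26.6, 30.9 and 28.2 in COM-4 to COM-6, so that COM lay partly within NC and partly above it. The difference did not pass the test (log2 fold change 0.20, SE 0.16, adjusted p = 0.312 by limma). Its direction was set by the libraries kept: it was -0.15 without COM-4 to COM-6 (adjusted p = 0.145) and 0.56 without COM-1 to COM-3 (adjusted p = 0.00142), the latter an alternative chosen after seeing the data. With sample weights it was -0.11, and with size factors 0.51 (adjusted p = 0.0757). In COM+Met all 6 samples, from 24.1 to 27.2 FPKM (median 25.8), were above every NC sample. That rise was under 2-fold (0.42, SE 0.06, adjusted p = 2.49e-05), and 19.3% of all genes rose at an adjusted p below 0.05 in that comparison and 14.1% rose without overlap.

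**Figure D3:**
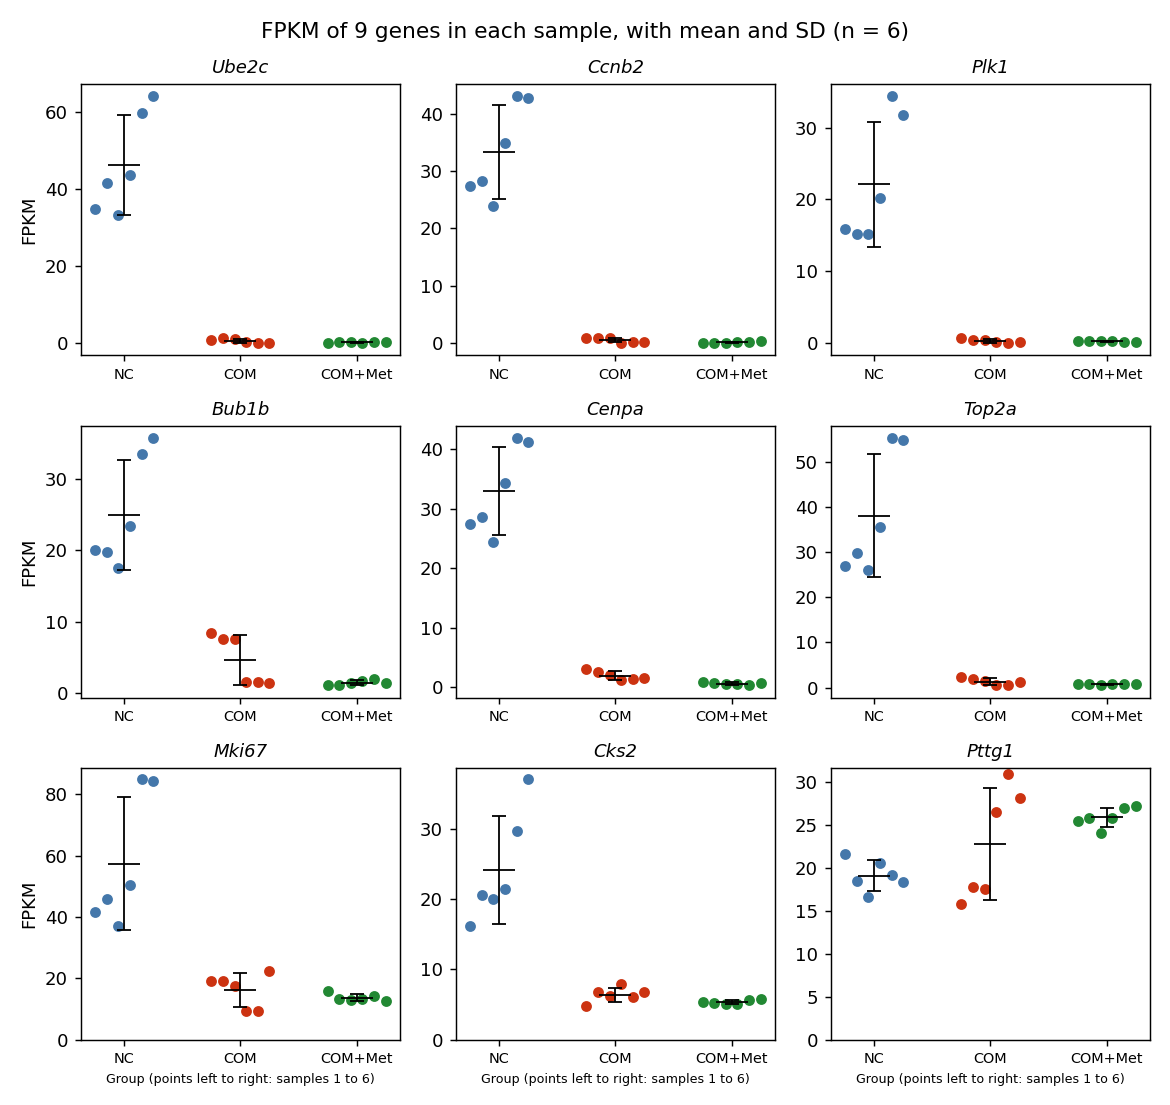
FPKM of 9 genes in each sample (points, samples 1 to 6 from left to right within a group), with the group mean and SD (n = 6). In 8 of the 9 panels NC lies above COM and COM+Met, and in the Pttg1 panel COM spans the NC level while COM+Met lies above it.

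Plk1, the polo-like kinase that acts from mitotic entry to cytokinesis, had the largest fall among the kinases on the log2(FPKM + 1) scale, though Pbk kept a smaller share of its NC mean. NC values ran from 15.2 to 34.4 FPKM (median 18), COM values from a listed 0 in COM-5 to 0.692 (median 0.277) and COM+Met values from 0.114 to 0.272 (median 0.249). NC was 72.5 times COM on the mean (log2 fold change -4.09, SE 0.22, adjusted p = 4.28e-08 by limma), with no overlap of the groups. Bub1b (BubR1), a kinase-like protein of the spindle checkpoint, had the highest NC mean among the kinases, with 17.5 to 35.7 FPKM (median 21.7). Its COM values split into 8.45, 7.57 and 7.65 FPKM in COM-1 to COM-3 and 1.56, 1.61 and 1.38 in COM-4 to COM-6, while COM+Met had 1.13 to 2.0 (median 1.49). All COM samples were still below NC (-2.41, SE 0.39, adjusted p = 0.000282), and the log2 fold change was -3.32 without COM-1 to COM-3, -1.50 without COM-4 to COM-6 and -1.35 with sample weights. The Aurora kinases Aurka and Aurkb, which act on the spindle poles and the centromere, held 7.32% and 5.38% of their NC mean in COM. Pbk was listed at 0 in 4 COM samples and 3 COM+Met samples, against 3.38 to 9.43 FPKM in NC.

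Foxm1, the transcription factor that drives late cell cycle genes, was itself among the low genes. Its NC range was 4.83 to 10.9 FPKM (median 6.47), its COM range 0.110 to 0.684 (median 0.315) and its COM+Met range 0.132 to 0.532 (median 0.245). COM was below every NC sample (log2 fold change -2.58, SE 0.21, adjusted p = 8.61e-07 by limma). Birc5 (survivin), a subunit of the chromosomal passenger complex, went from 21.1 to 47.9 FPKM in NC (median 25.5) to 0.0882 to 0.781 in COM (median 0.330) and 0.0109 to 0.431 in COM+Met (median 0.274). The NC mean was 82.1 times the COM mean (-4.48, SE 0.22, adjusted p = 2.13e-08). Mad2l1, the checkpoint protein Mad2, kept 24.7% of its NC mean.

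Cenpa, the histone H3 variant that marks centromeres, had the highest NC level of the kinetochore group and its largest fall on the log2(FPKM + 1) scale. As a share of the NC mean Cenpa kept 5.86% in COM, more than Spc24 (1.19%) or Cenpf (1.22%). NC samples held 24.3 to 41.9 FPKM (median 31.4), COM samples 3.0, 2.59, 1.95, 1.26, 1.32 and 1.47 from COM-1 to COM-6, and COM+Met samples 0.832, 0.745, 0.477, 0.586, 0.314 and 0.618. The 3 groups were thus fully separate in the order NC, COM, COM+Met. COM against NC gave a log2 fold change of -3.54 (SE 0.18, adjusted p = 2.85e-08 by limma). Cenpe, Cenpf, Ndc80, Nuf2, Spc24 and Spc25, of which the last 4 form the Ndc80 complex that grips microtubules, fell by 2.51 to 3.26 on the log2 scale.

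Among the kinesins, motor proteins that move along microtubules, Kif20a and Kif23 work in the central spindle during cytokinesis. Kif20a had 13.8 to 33.6 FPKM in NC (median 19.2), 0.150 to 1.23 in COM (median 0.602) and 0.197 to 0.498 in COM+Met (median 0.249). For Kif23 the ranges were 12.1 to 27.6 (median 16.4), 0.0385 to 0.533 (median 0.279) and a listed 0 to 0.175 (median 0.103). NC did not overlap with either other group in either gene, and the log2 fold changes of COM against NC were -3.79 (SE 0.25, adjusted p = 1.87e-07 by limma) and -3.86 (SE 0.22, adjusted p = 5.60e-08). Kif11, the motor that pushes spindle poles apart, fell by 3.24.

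Stmn1 (stathmin), which destabilises microtubules, was the most abundant of the 50 genes in NC. Its level was 60.8 to 153 FPKM in NC (median 77.1), 1.00 to 4.27 in COM (median 2.12) and 1.90 to 3.09 in COM+Met (median 2.32). COM held 2.41% of the NC mean (log2 fold change -4.84, SE 0.28, adjusted p = 7.42e-08 by limma). Tpx2, a spindle assembly factor that activates Aurora A and was chosen after its values were seen, had another order within COM. It was at 1.37, 1.19 and 0.965 FPKM in COM-1 to COM-3, 2.63 and 2.62 in COM-4 and COM-5 and 5.48 in COM-6, against 12.4 to 29.0 in NC. So COM-4 to COM-6 were the higher samples here, yet all were below NC (-2.60, SE 0.31, adjusted p = 2.23e-05).

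Racgap1, the partner of Kif23 in the centralspindlin complex, stood for cytokinesis. Its values were 19.5 to 47.2 FPKM in NC (median 24.5), 0.401 to 1.48 in COM (median 0.737) and 0.470 to 0.915 in COM+Met (median 0.666). COM was below NC in every sample (log2 fold change -4.03, SE 0.24, adjusted p = 7.58e-08 by limma). Anln, which ties the contractile ring to the membrane, and Ect2, also needed for cytokinesis, fell by 3.53 and 2.41.

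Top2a, the topoisomerase that untangles sister chromatids, showed the largest fall of its group on the log2(FPKM + 1) scale, with 26.1 to 55.3 FPKM in NC (median 32.7), 0.540 to 2.32 in COM (median 1.39) and 0.636 to 0.879 in COM+Met (median 0.821). The log2 fold change of COM against NC was -4.05 (SE 0.24, adjusted p = 8.90e-08 by limma), and COM held 3.53% of the NC mean, against 3.30% for Ncapg. Mki67, the gene of the proliferation antigen Ki-67, was far less reduced. NC had 37.0 to 84.9 FPKM (median 48.2), COM had 19.1, 19.1, 17.7, 9.40, 9.27 and 22.4 in COM-1 to COM-6, and COM+Met had 12.6 to 15.8 (median 13.4). COM-6 was the highest COM sample and COM-4 and COM-5 the lowest, all below NC (-1.76, SE 0.27, adjusted p = 0.000176). Smc4, a condensin subunit chosen after its values were seen, likewise kept 28.0% of its NC mean, whereas the condensin I subunits Ncapd2, Ncapg and Ncaph were lower in COM by log2 fold changes of -3.61, -2.86 and -2.78.

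**Figure D4:**
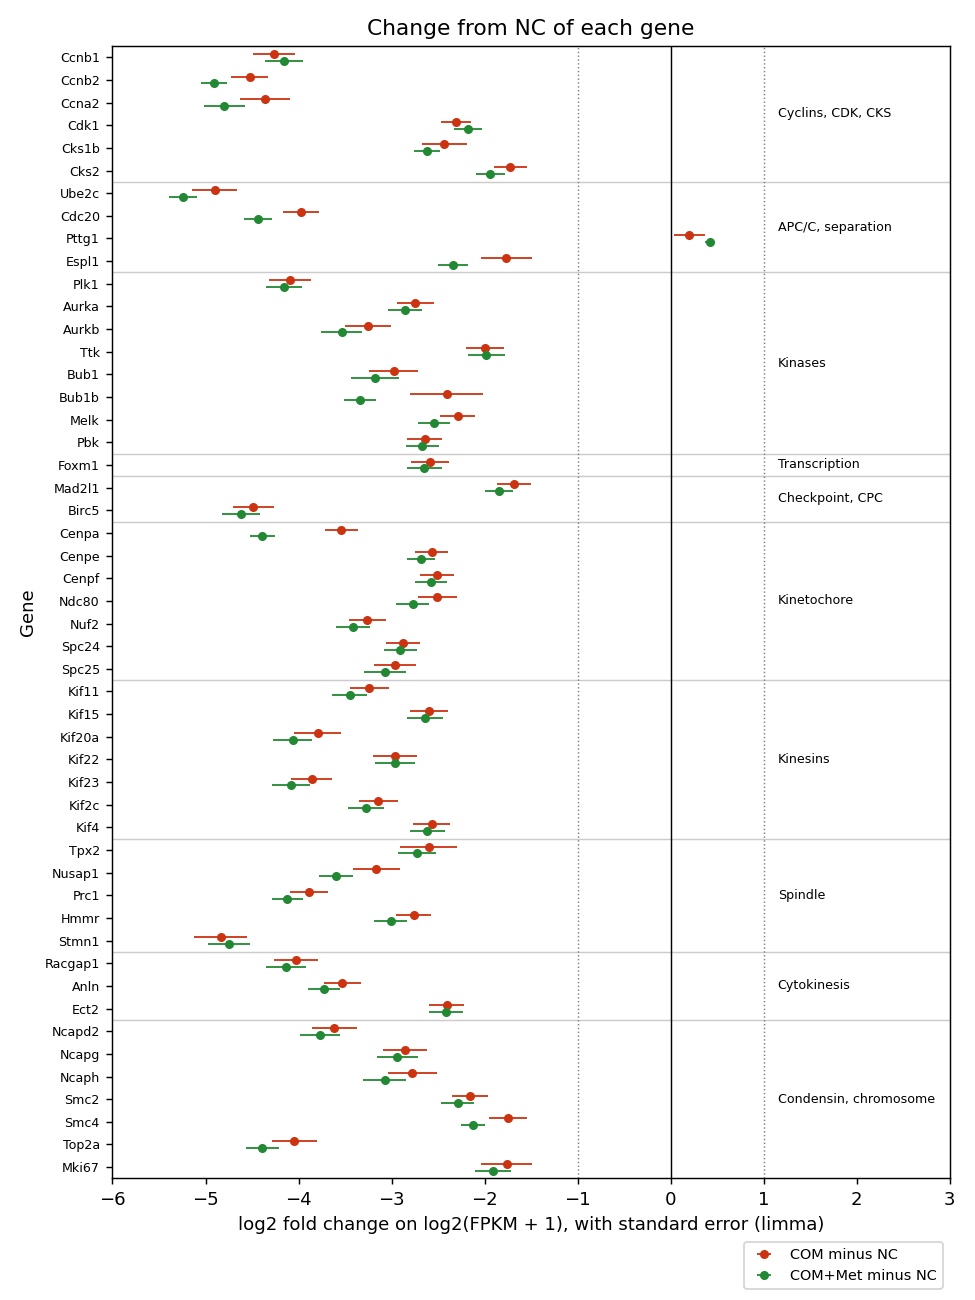
Log2 fold change from NC of each of the 50 genes on the log2(FPKM + 1) scale, with the standard error of limma, for COM (red) and COM+Met (green). Dotted lines mark 2-fold. All points but those of Pttg1 lie left of the 2-fold line, down to -4.90 in COM and -5.24 in COM+Met for Ube2c.

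The samples of NC differed among themselves along the same genes. NC-5 and NC-6 were above NC-1 to NC-4 in 49 of the 50 genes (98.0%), an order found in 28.9% of 10751 genes. The ratio of the mean of NC-5 and NC-6 to that of the other 4 had a median of 1.93 over the 50 genes (0.971 to 2.68), against 1.01 over all genes. Without NC-5 and NC-6, 49 genes were again called lower in COM and the median log2 fold change was -2.52. In COM, COM-4 to COM-6 were all below COM-1 to COM-3 in 32 of the 50 genes (64.0%, against 44.6% of all genes) and all above them in 2, Pttg1 and Tpx2 (4.0%, against 9.19%). The count of called genes was 49 without COM-4 to COM-6 and 49 without COM-1 to COM-3. The labels give no batch for these subsets.

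COM+Met was below NC in these genes as well. Against NC, 49 of 50 genes were called lower (13.6% of 10786 genes tested were) and 0 higher (5.66%), with a median log2 fold change of -3.04 beside -0.26 for all genes. The share of higher genes among all calls in that comparison was 29.4% as deposited and 46.6% with size factors, while the count for these genes stayed at 49. The groups did not overlap, with COM+Met lower, in the same 49 genes (43.6% of all genes). The COM+Met mean was 0.316% to 23.9% of the NC mean (median 2.49%) and under 5% in 34 genes. Of the 50 genes, 39 had a COM+Met mean under 1 FPKM and passed the filter through NC alone. Since both comparisons share the NC samples, they are not independent.

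Between COM+Met and COM directly, few differences were seen. Only 13 of the 50 genes had enough signal to be tested, and 0 were called in either direction (1.61% of 10364 genes tested were called lower and 0.608% higher). Cenpa alone had an adjusted p below 0.05, with COM+Met lower in all 6 samples (log2 fold change -0.85, SE 0.15, adjusted p = 0.00356 by limma). For comparison, 7.58% of all genes were lower at that adjusted p and 5.77% higher, and in 5.34% COM+Met was lower without overlap. Cenpa was below the 2-fold limit at a pseudocount of 1 and was called at a pseudocount of 0.1, with sample weights and without COM-4 to COM-6. Its adjusted p was 0.0021 to 0.0113 with single samples left out, and without COM-1 to COM-3 its mean was under the filter. At an unadjusted p below 0.05, 4 of the 13 genes were lower in COM+Met and 0 higher (15.6% and 13.0% of all genes), and these were Cenpa, Bub1b, Smc4 and Cks2.

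Bub1b was lower in COM+Met than in COM by 0.93 in the fit of all samples (log2 fold change -0.93, SE 0.37, adjusted p = 0.117 by limma), with the 3 high COM samples above all COM+Met samples and the 3 low ones among them. Without COM-4 to COM-6 the difference was -1.84 (adjusted p = 6.58e-08), and without COM-1 to COM-3 it was -0.02 (adjusted p = 0.904). Leaving out COM-6 alone gave -1.13 (adjusted p = 0.0363), so that Bub1b was then called.

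The other 37 genes were compared by permutation (exact and two-sided, over the 924 splits of 12 samples). The smallest p this test can give is 0.00216. Of these, 6 had an exact p below 0.05, all lower in COM+Met (10.1% of 9123 genes under the filter were lower and 3.89% higher). They were Hmmr, a hyaluronan receptor that also binds spindle microtubules (exact p = 0.0130), Cdc20 (exact p = 0.0173), the checkpoint kinase Bub1 (exact p = 0.0238), the kinase Melk (exact p = 0.0346), Ndc80 (exact p = 0.0433) and Kif23 (exact p = 0.0498). These p-values are not adjusted for the number of genes, and the groups overlapped in all 6 (in 1.85% of genes under the filter they did not, with COM+Met lower). Over the 50 genes, the mean of COM+Met was the lower one in 44, and the share of all genes with that order was not computed. Their median log2 difference was -0.15, beside 0.0033 for all genes tested. These sets are unlike, since the 50 include the 37 genes under the filter and the genes tested do not. The COM+Met median lay within the range of the COM samples in 46 of the 50 (76.0% of all genes). With COM-1 to COM-3 left out the median difference was -0.0066 beside 0.13 for all genes. COM+Met samples had the narrowest range: their median level over the 50 genes was 0.378 to 0.536 on the log2 scale, against 0.412 to 1.01 in COM and 3.47 to 4.49 in NC.

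Other genes of cell division, from a list written with earlier results of these data known, moved the same way. Of 60 tested, 49 were called lower in COM than in NC and 0 higher (median log2 fold change -1.90), with 43 to 49 called lower under the scalings tried. Over all genes tested 11.7% were called lower and 5.99% higher. Many of the 49, Cdca3 and Pimreg included, had a COM mean under 1 FPKM and passed the filter through NC alone. Cdca3, a trigger of mitotic entry, and Pimreg had the largest falls on the log2(FPKM + 1) scale, Cdca3 from 25.5 FPKM in NC to 0.660 in COM and Pimreg from 13.1 to 0.107. Without the 2-fold limit, 54 of the 60 were lower and 1 higher at an adjusted p of limma below 0.05 (4423 and 1382 of 10900 genes). The higher gene was Zwint, a kinetochore protein, at 45.2 FPKM in COM against 31.5 in NC (log2 fold change 0.50, SE 0.09, adjusted p = 0.000588 by limma), under 2-fold.

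DNA replication genes were called lower in COM in 25 of 29 tested, with 0 higher (median log2 fold change -1.33). That count was 16 with size factors and 17 after quantile normalisation. Some of these genes, such as Mcm10 and Pole, also had a COM mean under 1 FPKM and passed the filter through NC alone. The largest falls on the log2 scale were in Rrm2, a subunit of ribonucleotide reductase (23.8 to 1.03 FPKM), and Tk1, thymidine kinase (19.4 to 1.60 FPKM). The core subunits of the APC/C, by contrast with its partners Ube2c and Cdc20, were mostly not called. Of 16, 1 was called lower (Anapc15) and 0 higher, beside 11.7% and 5.99% of all genes tested. Without the 2-fold limit, 10 of the 16 were lower at an adjusted p of limma below 0.05 (4423 of 10900 genes were). With size factors 4 were lower and 1 higher (2544 and 2578 of 10875 genes). The median of the 16 was -0.46 as deposited and -0.15 with size factors.

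**Figure D5:**
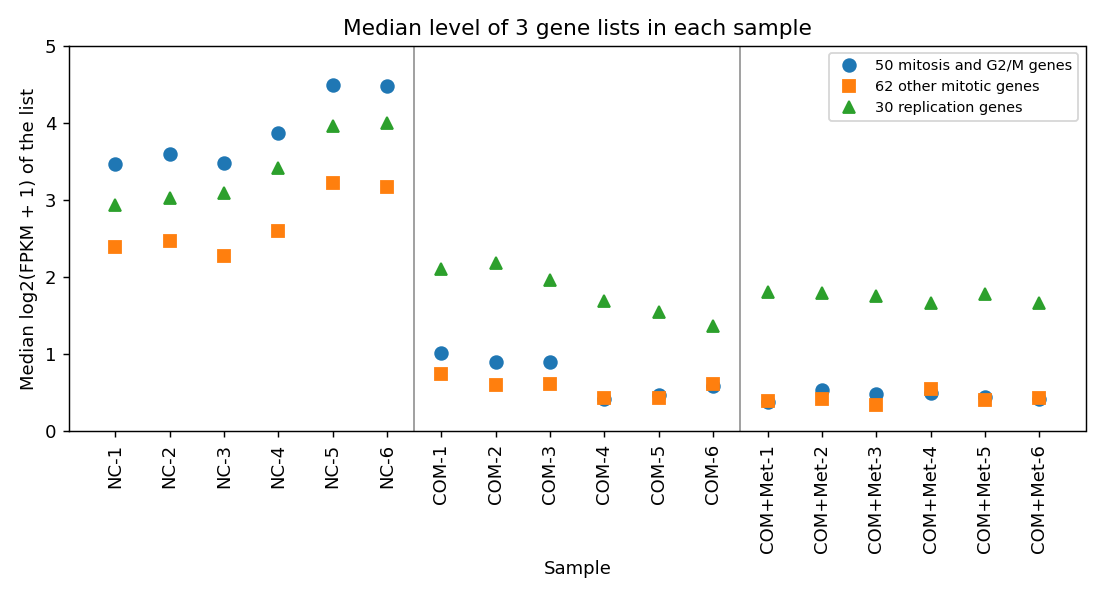
Median log2(FPKM + 1) of 3 gene lists in each sample: the 50 mitosis and G2/M genes (circles), 62 other mitotic genes (squares) and 30 replication genes (triangles). All 3 medians are highest in NC-5 and NC-6 and lower in COM and COM+Met than in NC, and in COM and COM+Met the replication genes stay above the other lists.

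The regulators around the G1/S step were more mixed. Of 22 tested E2F, DREAM and Rb family genes, 5 were called lower in COM and 0 higher (median log2 fold change -0.46 as deposited, -0.16 with size factors). With size factors or quantile normalisation 4 were called lower and 1, E2f5, higher. Over all genes tested 11.7% were called lower and 5.99% higher as deposited. E2f2, an activator of S phase genes, fell from 11.3 to 1.45 FPKM and Mybl2 (B-Myb) from 3.29 to 0.361. Of 9 G1 cyclins and their kinases, Ccne2 (4.34 to 0.809 FPKM) and Cdk2 (17.1 to 7.07 FPKM) were called lower (1 of the 9 was with size factors or quantile normalisation), and Ccnd2, a D-type cyclin, was called higher (3.10 to 10.5 FPKM, log2 fold change 1.33, SE 0.29, adjusted p = 0.00229 by limma). Of 7 CDK inhibitors tested, 3 were called lower and 0 higher. Cdkn3, a phosphatase of the CDKs (12 to 0.125 FPKM), and Cdkn2c (10.1 to 0.443 FPKM) had the largest falls on the log2 scale. Cdkn1a (p21) stood at 91.2 FPKM in NC and 114 in COM (0.24, SE 0.23, adjusted p = 0.409 by limma). Mybl2, Ccne2, Cdkn3 and Cdkn2c had COM means under 1 FPKM and so passed the filter through NC alone.

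Against NC, COM+Met gave like counts in these lists. Called lower were 50 of 60 other mitotic genes, 20 of 29 replication genes and 1 of 16 APC/C subunits. So were 6 of 22 E2F and DREAM genes, 3 of 7 CDK inhibitors and 3 of 9 G1 genes, and 1 gene (E2f5) was called higher. Over all genes tested 13.6% were called lower and 5.66% higher. With size factors 3 of 21 E2F and DREAM genes and 1 of 9 G1 genes were called lower, and E2f5 and Ccnd2 higher. Many genes called lower had a COM+Met mean under 1 FPKM and passed the filter through NC alone. Between COM+Met and COM, 0 genes of these 6 lists were called (1.61% of 10364 genes tested were called lower and 0.608% higher). Fewer genes were tested here: 23 other mitotic genes, 23 replication genes, 16 APC/C subunits, 19 E2F and DREAM genes, 5 CDK inhibitors and 8 G1 genes. Some had an adjusted p below 0.05 without reaching 2-fold: 3 lower and 1 higher among other mitotic genes, 2 lower and 1 higher among CDK inhibitors, and 1 lower among replication genes. Over all genes 7.58% were lower and 5.77% higher at that adjusted p.

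Macrophage markers were present in all samples: the summed FPKM of 8 genes, chiefly Lyz2, was 11083 to 15615 in NC, 10601 to 14295 in COM and 12312 to 17050 in COM+Met, and none of the 8 had a mean under 1 FPKM. Of these 8 markers, 3 were called higher in COM than in NC and 0 lower, among them Adgre1 (F4/80), at 577 against 112 FPKM. From NC to the other groups, stromal markers moved in the same direction as the division genes. The sum of 10 genes was 26.7 to 89.3 FPKM in NC, 7.02 to 46.8 in COM and 4.08 to 9.92 in COM+Met. Of 8 tested, 6 were called lower and 1 higher in COM. Within NC the order was the opposite, with the lowest stromal sums in NC-5 (59.7 FPKM) and NC-6 (26.7 FPKM), where the division genes were highest. The sum of 18 neutrophil markers was 1768 to 18771 in NC, highest in NC-5 and NC-6 through Chil3, 1809 to 2036 in COM and 971 to 1153 in COM+Met. The highest of them was Chil3 in NC and Lcn2 in COM and COM+Met. Of the 18, 6 had a mean under 1 FPKM in NC, 9 in COM and 10 in COM+Met, with Ly6g, Elane and Mpo among them in each group. Of 11 tested, 5 were called lower in COM than in NC, such as S100a9 (171 to 8.43 FPKM), and 2 higher, Lcn2 (23.5 to 1133 FPKM) and Mmp9. Tubular epithelial markers summed to 11 to 18.4 FPKM over 16 genes in NC, 15 of which had a mean under 1 FPKM and 4 of which were at 0 throughout, and Cdh1 made up most of it. The sum was 0.468 to 1.37 in COM and 0.0575 to 0.332 in COM+Met. The sum of 14 progenitor and other marrow markers, mostly Pf4, was 14.9 to 113 FPKM in NC, 36.0 to 143 in COM and 69.4 to 88.4 in COM+Met. In NC it too was lowest in NC-5 (14.9 FPKM) and NC-6 (16.2 FPKM). The part of these other cell types in the result was not tested. The FPKM of all genes summed to 415715 to 430822 in NC, 380731 to 449186 in COM and 430165 to 441308 in COM+Met.

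All 50 genes were matched by Ensembl identifier to protein-coding genes of GENCODE M21 (GRCm38), spread over 17 chromosomes, and so did not share a locus. Exons of 10 of them overlap a gene on the opposite strand (among them Ube2c with Tnnc2, Ccna2 with Exosc9 and Kif20a with Cdc23) and exons of 4 a gene on the same strand. A further limit is that 4 (Ccnb1, Ccnb2, Kif22 and Kif4) have named pseudogenes. How shared reads were counted is not given in the sources used here, so these values are uncertain to that extent.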

How the data were processed

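RNA-seq libraries had been made with the TruSeq kit from total RNA of BMDMs in 18 samples, 6 per group. Whether the libraries mark strand was not established here. Groups and replicate numbers were read from the sample labels. The authors deposited FPKM values, fragments scaled to gene length and to each sample's total, for 25926 genes each sample in its own column. Bowtie 0.12.2, mm8 and mm9 stand in the submitters' processing notes, with no role named. How FPKM was calculated, and on which annotation, is not given in the sources used here. Depth is unknown, so no counting interval could be given.

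Values were transformed to log2(FPKM + 1). In each of 3 comparisons, genes averaging 1 FPKM or more across its 12 samples entered a two-sided limma fit (3.58.1, eBayes with trend, R 4.3.3), and p-values were adjusted by Benjamini-Hochberg over all of them. Genes were called at an adjusted p below 0.05 and 2-fold. Genes under the filter were compared by the exact permutation test. The procedure was tested on simulated data with known changes. Of 100 planted changes of 1.5 log2 units, 88 were recovered in COM against NC, 88 in COM+Met against COM and 97 in COM+Met against NC. Changes were planted only in genes of high mean level, so the recovery of low genes was not tested. Motif searches and tables used pandas 2.3.3 and numpy 2.4.6 under Python 3.11.15, and plots matplotlib 3.10.9. Sequences are from RefSeq (GRCm38.p6) and gene positions from GENCODE M21, neither being a build of the submitters' notes.

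The members, the other lists and the markers were chosen with earlier results of these data known. Per-sample values are given, in each of the 10 role groups, for the gene with the highest NC mean and the one with the largest log2 fold change between COM and NC, and for each gene not called in that comparison. From the other lists the genes with the largest called changes are named. Zwint and Cdkn1a, which were not called in COM against NC, are named beside them. Cks2, Smc4 and Tpx2 were added after their values were seen, and genes mentioned with a percentage, a range or a single change illustrate their group. The alternatives tried were a replicate block, arrayWeights, a joint fit of all 18 samples, pseudocounts of 0.1 and 5, filters at 5 FPKM and at any value above 0, quantile normalisation, TPM, median-of-ratios size factors, single samples left out, NC-5 with NC-6 or COM-4 to COM-6 left out, and adjusted p alone. Leaving out COM-1 to COM-3 was added after seeing the data.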

Additional observations from a re-analysis of the deposited data

Results flagged for a closer look

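Tpx2, a spindle assembly factor, had 1 low value among the COM+Met samples. COM+Met-1 had 1.40 FPKM, whereas the other 5 samples lay between 1.87 and 2.05 FPKM. On the log2(FPKM + 1) scale its gap to the nearest sample was 0.746 of the whole range of the group. Of 57 gene and group sets of 6 samples tested for such a value, this was the only one, and chance alone would give about 1 in 20.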

How the results depend on the processing

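The count of 49 genes called lower was unchanged in COM against NC and in COM+Met against NC with each sample left out in turn (49 to 49) and under each scaling. It was 47 and 48 at a pseudocount of 5, and 35 in each of these comparisons at a filter of 5 FPKM, where 36 were tested. Their median log2 fold change depended on the pseudocount, at -4.28 (pseudocount 0.1) and -1.57 (pseudocount 5) for COM against NC and at -4.80 and -1.66 for COM+Met against NC. It ranged from -2.97 to -2.72 and from -3.15 to -2.91 with single samples left out. Between COM+Met and COM the median was -0.35 at a pseudocount of 0.1 and -0.20 to -0.12 with single samples left out. The count of genes called there, 0, became 1 at a pseudocount of 0.1 and by adjusted p alone (Cenpa), 2 with arrayWeights and 2 without COM-4 to COM-6 (Bub1b and Cenpa), and 0 to 1 with single samples left out (Bub1b without COM-6). Bub1b differed by -1.72 there with arrayWeights. The direction of Pttg1 in COM against NC turned, to -0.11 with arrayWeights and -0.15 without COM-4 to COM-6. In a fit with a replicate block, 49, 0 and 49 genes were called in COM against NC, COM+Met against COM and COM+Met against NC, and the medians were -2.87, -0.15 and -3.04. Same-numbered samples did not deviate together (correlations of -0.222 to 0.0569, 0 of 6 best matched to their own number in each comparison), so the numbers give no pairing. Medians were not recomputed for the filters and adjusted p alone, since they cover all 50 genes. Depth is unknown, so the precision of the low values in COM and COM+Met, most of them under 1 FPKM, is unknown too.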
